A study of Mus musculus with 6 samples.

Results

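Long non-coding RNAs that carry a name of their own, that host small RNAs, or that are named after the gene on the opposite DNA strand were examined in liver mRNA of mice lacking the mitochondrial ubiquitin ligase Mul1. Members were chosen by name, under a rule set with earlier results of these data known. It took Malat1, Neat1, Gas5 and Meg3, and names that start with Snhg or with Mir and a digit. It also took names that end in "os" or in "os" and digits. The rule picked 56 of the 3542 genes in the deposited table, of which 3 (Minos1, Uros and Sos1) are coding genes whose names only happen to end in these letters and are given apart. The 53 members comprise Malat1, Neat1 and Meg3, a group of 15 with Gas5 and 14 Snhg genes, 9 Mir-named genes and 26 opposite-strand genes. All 53 had a higher mean in Mul1(-/-) HFD-liver, as did 56.8% of all genes in the table, by a median of 2.12 on the log2 scale (range 1.06 to 3.46), and they differed most in how evenly the 3 Mul1(-/-) mice shared the difference.

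The libraries came from liver of 3 Mul1(+/+) and 3 Mul1(-/-) mice, 1 library per mouse, all fed a high-fat diet (HFD) over 16 weeks. The Mul1 deletion is whole-body rather than liver-specific, the mice were bred from heterozygous parents, HFD with 60% of calories from fat began at 8 weeks of age, and the sex of these 6 mice is not given in the labels. The labels name the tissue as liver and the cell type as hepatocytes, yet the material is pieces of liver tissue, in which fewer cells of a type and less RNA per cell cannot be told apart. Values are normalized read counts, that is, reads divided by 1 factor per library, and log2 differences are on the log2(normalized count + 1) scale, on which a low gene's change comes out too small. The table holds only genes that the submitters had already selected for a difference between these same 6 libraries, so directions and counts of calls describe the members and are not independent evidence.

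Snhg genes ("small nucleolar RNA host genes") are transcribed as long RNAs whose introns are trimmed into small nucleolar RNAs (snoRNAs), the guides for chemical modification of ribosomal RNA. Their spliced exons often code for no protein, and many are degraded quickly by nonsense-mediated decay. Mir host genes are cut in the nucleus into hairpins that mature into microRNAs, which recognise messenger RNAs through the seed near their 5′ end. Malat1 is a nuclear RNA of the splicing-factor domains called speckles, Neat1 is the scaffold of the nuclear bodies called paraspeckles, and Meg3 is transcribed from the maternal copy of the imprinted Dlk1-Dio3 region. Opposite-strand RNAs are transcribed across or beside a gene in the other direction, and some are known to act on that gene while most have no known role.

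The mature microRNAs below are shown because their precursors lie inside members of the table, so they say which small RNAs each host could give. mRNA libraries do not measure mature microRNAs or snoRNAs, and the members' values are of the annotated long RNA or of the hairpin's row. The Snhg7 row is an exception, as its identifier belongs in GENCODE M21 to a snoRNA. In Snhg1, Snhg12, Snhg8 and Rab26os a single annotated exon block spans the gene with its snoRNA genes, so reads from these may be included. Sequences and positions are those of RefSeq on GRCm38.p6, written 5′ to 3′, with the seed (bases 2 to 8) in capitals. The first line is the main product of Mir22hg, the next 6 are from Mir17hg, the next 3 from Mir99ahg, the next 3 from Dnm3os, and the last from the Mir703 row.
mmu-miR-22-3p, chr11:75463772-75463793, plus strand: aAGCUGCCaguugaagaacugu
mmu-miR-17-5p, chr14:115043684-115043706, plus strand: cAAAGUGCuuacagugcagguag
mmu-miR-20a-5p, chr14:115044183-115044205, plus strand: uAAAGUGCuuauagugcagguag
mmu-miR-18a-5p, chr14:115043867-115043889, plus strand: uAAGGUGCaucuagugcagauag
mmu-miR-19a-3p, chr14:115044048-115044070, plus strand: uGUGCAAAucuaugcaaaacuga
mmu-miR-19b-3p, chr14:115044358-115044380, plus strand: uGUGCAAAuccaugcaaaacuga
mmu-miR-92a-3p, chr14:115044476-115044496, plus strand: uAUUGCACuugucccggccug
mmu-miR-99a-5p, chr16:77598940-77598961, plus strand: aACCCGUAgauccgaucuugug
mmu-let-7c-5p, chr16:77599672-77599693, plus strand: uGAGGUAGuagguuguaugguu
mmu-miR-125b-5p, chr16:77646279-77646300, plus strand: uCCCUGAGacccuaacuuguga
mmu-miR-199a-5p, chr1:162217844-162217866, plus strand: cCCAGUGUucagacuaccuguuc
mmu-miR-199a-3p, chr1:162217883-162217904, plus strand: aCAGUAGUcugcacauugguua
mmu-miR-214-3p, chr1:162223438-162223459, plus strand: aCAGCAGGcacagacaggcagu
mmu-miR-703, chr5:98475616-98475636, minus strand: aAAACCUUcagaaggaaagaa
Among the mature sequences found inside members, miR-17-5p and miR-20a-5p share the seed AAAGUGC, and miR-19a-3p and miR-19b-3p share the seed GUGCAAA.

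Mul1 itself was measured at 3172, 3232 and 3423 normalized counts in Mul1(+/+) replicates 1 to 3 and at 1037, 965 and 1753 in Mul1(-/-) replicates 1 to 3, so the labels were borne out in direction and replicate 3 held the most remaining Mul1 reads. By the rule given below Mul1 was not called (log2 fold change -1.44, SE 0.40, adjusted p = 0.0126 from limma). Reads assigned to the table's genes ranged from 11932165 to 15385822 per library, which is part of each library and not its depth. Transcripts of the mitochondrial genome took 10.7% to 13.4% of these reads in Mul1(+/+), and 49.4%, 22.8% and 15.4% in Mul1(-/-) replicates 1 to 3. The same order of Mul1(-/-) replicates, highest in 1 and lowest in 3, recurred in 26 of the 53 members. It was also found in 200 of the 443 other non-coding genes and in 814 of all 3542 genes. The part of the mitochondrial share in the members' values was not tested. Among markers of liver cell types, those of bile duct cells had higher means in Mul1(-/-) (4 of 5 listed genes in the table, all 4 higher, 2 of them called, summed values 1292 to 1891 against 4878 to 5100), as had 1 of 6 for stellate cells (Dcn, 3452 to 4335 against 5569 to 24011) and the lymphocyte marker Ptprc (log2 fold change 1.16). Spp1 made up most of the bile duct sums (1109 to 1645 in Mul1(+/+), 3336 to 4613 in Mul1(-/-)). In Mul1(-/-) replicates 1 to 3 Krt19 had 1151, 176 and 147, Krt7 251, 130 and 94.9, and Epcam 361, 268 and 204. Lower means were found for the 2 hepatocyte markers present (Hnf4a and Tat, median -1.49), the 2 endothelial markers (Pecam1 and Clec4g, median -1.12) and the erythroid marker Alas2 (-1.70), none of them called. Kupffer cell markers (6 listed) had no gene in the table, no marker in the table was at 0 in all libraries, and the part of cell composition in the members' values was not tested.

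A gene was called at an adjusted p under 0.01 from limma (Benjamini-Hochberg over all 3542 genes) with an absolute log2 fold change above 1. These limits are those of the study's methods, which applied them to the Wald test of DESeq2. Every gene here had already been selected by the submitters, so a gene not called did not thereby fail the study's own test. Below, the threshold means the limma rule. By this rule 17 of the 53 members (32.1%) were called, all 17 higher in Mul1(-/-), against 24.1% of all genes in the table called in either direction and 16.7% called higher (7.43% lower). Non-coding genes of the table outside the naming rule gave a like picture, with 164 of 443 (37.0%) called, 93.7% higher and a median log2 fold change of 2.05, and of the 2844 coding genes 596 were called and 48.0% were higher. The Mul1(-/-) values lay entirely above the Mul1(+/+) values in 48 members (90.6%), where 90.3% of all genes of the table did not overlap in 1 direction or the other and 49.3% did so upward. The 5 members whose groups overlapped were Chn1os3, Egfros, Mir22hg, Mir6397 and Snhg11. For each of the 48 others the exact permutation p (two-sided) was 0.1, the smallest that a design of 3 against 3 mice can reach. Groups that do not overlap always give this value, so it repeats the separation and adds no evidence. The number of members called was 0 without any one of the Mul1(+/+) libraries or without Mul1(-/-) replicate 2 (limma, with 45 to 49 members at an unadjusted p under 0.05), 13 without Mul1(-/-) replicate 1 and 47 without Mul1(-/-) replicate 3. Over all 3542 genes the same omissions gave 10 to 46 calls, 631 calls (17.8%) and 2673 calls (75.5%), so the members' number moved with that of the whole table. With the libraries rescaled by the median ratio, which moved the median of all genes by -0.66 on the log2 scale, all 53 members were still higher, by 0.41 to 2.81 on that scale, and 7 were called, against 35.8% of all genes.

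**Figure D1:**
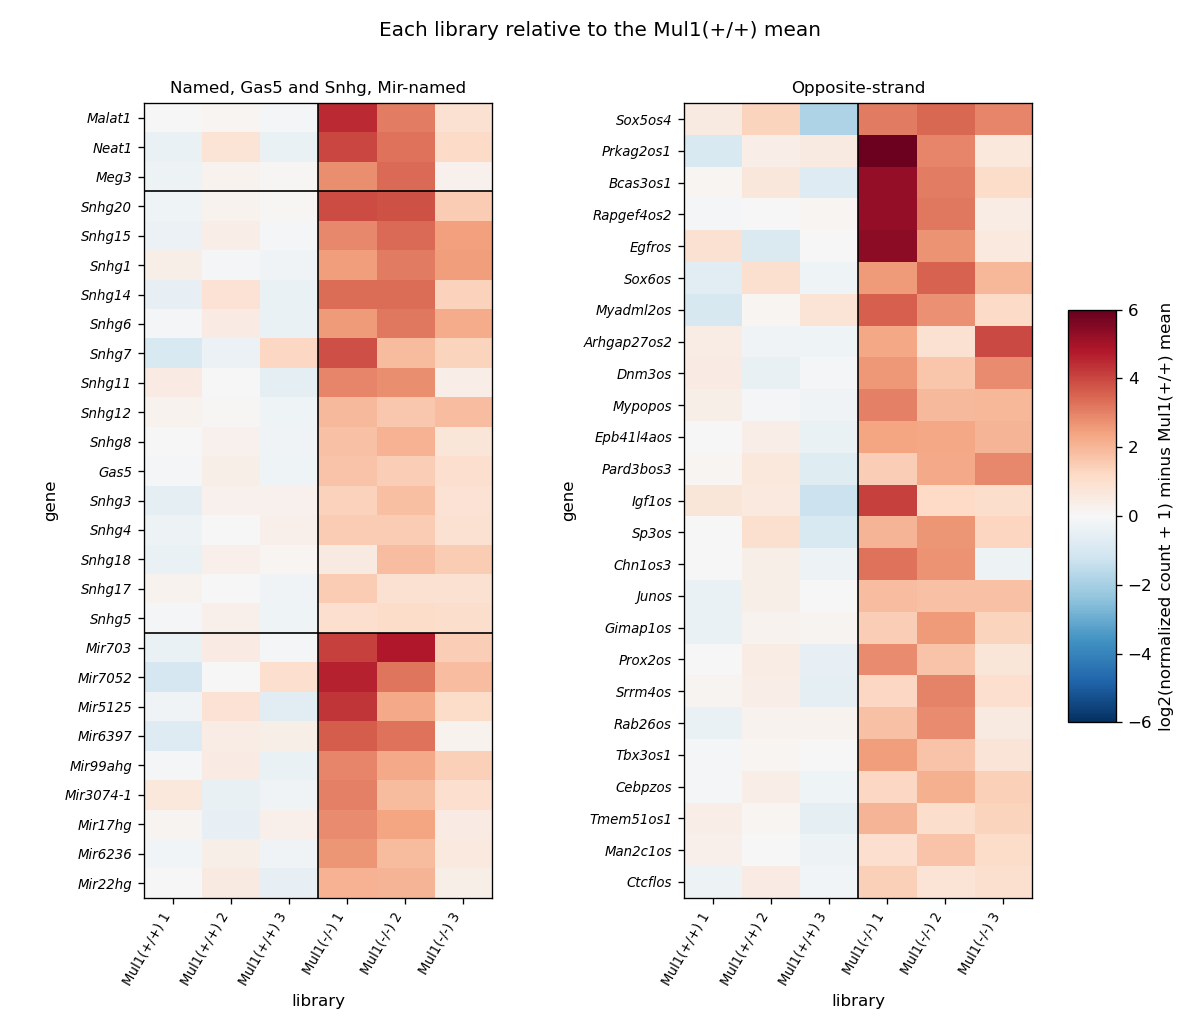
Heat map of 52 of the 53 members (rows, by naming class and then by mean difference) in the 6 libraries (columns). Colour gives log2(normalized count + 1) minus the mean of the 3 Mul1(+/+) libraries. The Mul1(-/-) columns are red in nearly every row, and replicate 3 is the palest of the 3 Mul1(-/-) columns in most rows.

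Relative to the Mul1(+/+) mean, the median member was higher by 2.61 in Mul1(-/-) replicate 1, by 2.28 in replicate 2 and by 1.11 in replicate 3 on the log2 scale. Replicate 3 was the lowest of the 3 Mul1(-/-) libraries in 41 members (77.4%), as it was in 77.9% of the other non-coding genes, while over all genes of the table the figure was 46.0%. A value at least 2-fold above the Mul1(+/+) mean was found in 51 members in replicate 1, in 50 in replicate 2 and in 31 in replicate 3. The members divide by this evenness: the highest Mul1(-/-) value was under 2 times the lowest in 16 members, 9 of them in the Gas5 and Snhg group, and replicate 1 was more than 4 times replicate 3 in 22 members, which include Malat1, Neat1, Meg3 and 7 of the 9 Mir-named genes. The median ratio of the highest to the lowest Mul1(-/-) value was 3.28 over the members, 3.67 over the other non-coding genes and 2.27 over all genes.

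The RNAs of nuclear bodies spread widely among the Mul1(-/-) mice. Malat1 (ENSMUSG00000092341, chr19:5795690-5802672, minus strand, a single annotated exon block) had normalized counts of 1713, 1937 and 1635 in Mul1(+/+) replicates 1 to 3 and of 39176, 14695 and 3329 in Mul1(-/-) replicates 1 to 3. The wild-type mice were within a narrow band, each Mul1(-/-) mouse was above it, and the Mul1(-/-) values themselves differed by 11.8 times. The log2 fold change was 2.82 (SE 0.74, adjusted p = 0.0112 from limma), short of the threshold, and it ran from 1.99 to 3.77 with each library left out in turn. Neat1 (ENSMUSG00000092274), its neighbour on chromosome 19 at 5824708 to 5845478, had 2234, 5074 and 2177 in Mul1(+/+) and 47162, 27762 and 6465 in Mul1(-/-) replicates 1 to 3. It was called higher, by 2.81 (SE 0.69, adjusted p = 0.00979 from limma), although the highest wild-type mouse came near the lowest Mul1(-/-) mouse, and its change was 2.20 to 3.64 with each library left out. Per kilobase of annotated exon, mean levels rose from 152 to 1306 normalized counts for Neat1, and were 252 in Mul1(+/+) and 2730 in Mul1(-/-) for Malat1, the highest Mul1(-/-) mean per kilobase of any member outside the hairpin rows.

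Meg3 (ENSMUSG00000021268, chr12:109541001-109571726, plus strand) had 84.3, 121 and 108 normalized counts in Mul1(+/+) and 732, 1081 and 122 in Mul1(-/-) replicates 1 to 3. Replicate 3 was within a single normalized count of the highest wild-type mouse, while replicates 1 and 2 were far above, and the log2 fold change of 2.14 (SE 0.71, adjusted p = 0.0199 from limma) did not pass the threshold. Of the 8 listed genes of the Dlk1-Dio3 region, the other non-coding RNAs Rian and Mirg were also in the table and neither was called. Rian had 37.1, 54.0 and 53.9 in Mul1(+/+) and 471, 484 and 80.8 in Mul1(-/-), with a log2 fold change of 2.45 (adjusted p = 0.0114 from limma). Mirg had 1.69, 6.20 and 3.27 against 33.6, 41.6 and 5.27, a difference of 2.27 on the log2 scale (adjusted p = 0.0166 from limma) with overlapping groups. All 3 RNAs of the region thus had Mul1(-/-) replicate 3 nearest to wild type.

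**Figure D2:**
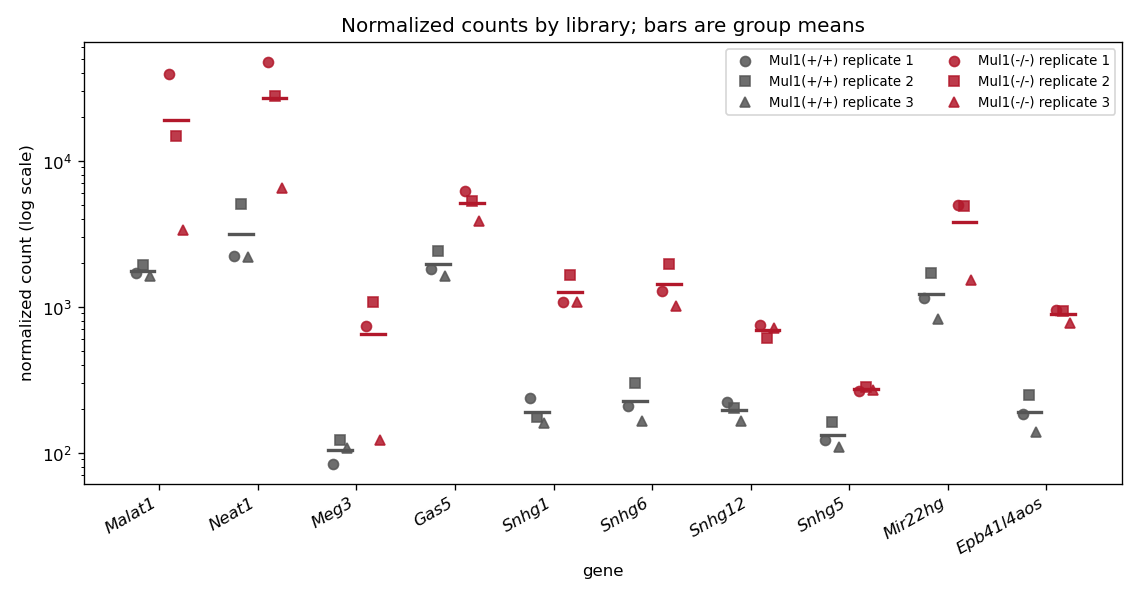
Normalized counts (log axis) of 10 members in each library, with Mul1(+/+) in grey and Mul1(-/-) in red, marker shapes for replicates 1 to 3 and bars for group means. Malat1, Neat1 and Meg3 spread widely among the Mul1(-/-) mice, whereas Snhg1, Snhg12, Snhg5 and Epb41l4aos have their 3 Mul1(-/-) values close together.

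The snoRNA host genes were the most even of the naming classes. Of the 15 Gas5 and Snhg genes 6 were called, where 24.1% of all genes and 37.0% of the non-coding genes outside the naming rule were. The Mul1(-/-) values stood clear of wild type in 14, where 90.3% of all genes did not overlap in 1 direction or the other. The median log2 fold change of the class was 1.81 (1.06 to 3.10). Median differences from the Mul1(+/+) mean were 1.93, 1.92 and 1.35 in Mul1(-/-) replicates 1 to 3. The median ratio of the highest to the lowest Mul1(-/-) value was 1.92, against 2.84 for the opposite-strand and 5.22 for the Mir-named genes. It was 2.27 over all genes of the table and 2.13 over coding genes, so the class was close to the table's usual spread. This is a description of the classes and no test was made of the difference between them. Without single libraries the number called in this class ran from 0 (without any one Mul1(+/+) library or Mul1(-/-) replicate 2) to 12 (without Mul1(-/-) replicate 3, where 75.5% of all genes were called).

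Gas5 (ENSMUSG00000053332, chr1:161034422-161038539, plus strand), named for its rise in growth-arrested cells and host to 10 annotated snoRNA genes, was the most abundant of the class. Its normalized counts were 1814, 2415 and 1633 in Mul1(+/+) and 6203, 5336 and 3887 in Mul1(-/-) replicates 1 to 3. Every Mul1(-/-) mouse was above every wild-type mouse, with a log2 fold change of 1.39 (SE 0.40, adjusted p = 0.0135 from limma) that missed the threshold. Snhg1 (ENSMUSG00000108414, chr19:8723475-8726443, plus strand), whose body holds 8 snoRNA genes, had 236, 174 and 159 against 1070, 1648 and 1075. The 3 Mul1(-/-) values were within 1.54 times of each other, and the rise of 2.72 (SE 0.40, adjusted p = 0.00351 from limma) was among the most significant of the members, with 2.51 to 2.88 when libraries were left out. Snhg15, which holds 1 snoRNA gene, rose from 32.0, 54.0 and 39.2 to 310, 445 and 231, by 2.93 (SE 0.42, adjusted p = 0.00351 from limma). Snhg6, also with 1, rose from 207, 302 and 166 to 1279, 1974 and 1019, by 2.65 (SE 0.43, adjusted p = 0.00518 from limma). Snhg1, Snhg15 and Snhg6 all had Mul1(-/-) replicate 2 as the highest library, unlike Malat1 and Neat1.

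Snhg20 (ENSMUSG00000086859, chr11:117076008-117078955, plus strand) changed most in the class and least evenly among those called. It had 62.4, 86.8 and 78.4 normalized counts in Mul1(+/+) and 1160, 1088 and 219 in Mul1(-/-) replicates 1 to 3, a rise of 3.10 (SE 0.62, adjusted p = 0.00692 from limma). Its annotation contains the microRNA gene Mir6516 beside 1 snoRNA gene. Snhg12, with 5 snoRNA genes, rose from 223, 202 and 164 to 744, 610 and 712, by 1.81 (SE 0.38, adjusted p = 0.00701 from limma), and here the 3 Mul1(-/-) mice were within 1.22 times of each other. Snhg14 (chr7:59307924-59975759, minus strand), a very long RNA of the imprinted Prader-Willi and Angelman syndrome region, holds 208 annotated snoRNA genes in near-identical clusters, so the assignment of its reads is uncertain. It rose from 16.0, 41.6 and 17.2 to 243, 244 and 60.6, by 2.71 (SE 0.61, adjusted p = 0.00816 from limma). Ube3a, the coding gene that Snhg14 crosses on the other strand, had 1802, 1235 and 1791 against 4958, 7589 and 1146, with overlapping groups and a log2 fold change of 1.14 (adjusted p = 0.104 from limma).

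The remaining 8 Snhg genes did not pass the threshold, with log2 fold changes from 1.06 to 2.38 and adjusted p from 0.0145 to 0.0237 (limma). Snhg5 had the smallest difference of all members and the tightest Mul1(-/-) values, at 123, 162 and 109 in Mul1(+/+) and 266, 282 and 270 in Mul1(-/-), which is 1.06 on the log2 scale (SE 0.38, adjusted p = 0.0237 from limma). Snhg8 was the most abundant of these, with 664, 809 and 587 against 2274, 2911 and 1140 and a log2 fold change of 1.53. Snhg17 (1.12), Snhg18 (1.30), Snhg4 (1.32) and Snhg3 (1.35) lay lower. Snhg18 had 43.0, 70.0 and 61.3 against 81.8, 209 and 165, so that replicate 1 was the Mul1(-/-) library nearest to wild type, the reverse of Malat1. Snhg11, which GENCODE M21 lists as protein-coding, had 66.6, 46.9 and 31.9 against 359, 323 and 62.4, so that replicate 3 fell among the wild-type mice. Snhg7 (2.38) had at most 7.35 normalized counts in any wild-type mouse, and its identifier belongs in GENCODE M21 to a snoRNA of 139 bases in that locus, Snora43, so it is not known to stand for the spliced host RNA. Snhg3 shares 71.5% of its exon bases with Gm17300 on the other strand, which was itself higher, by 2.70 (adjusted p = 0.00776 from limma), and whether counting used strand is not given in the sources used here.

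Host genes for snoRNAs are known for a start site inside a run of pyrimidines, the terminal oligopyrimidine (TOP) motif that they share with ribosomal protein genes, and some have a TATA box upstream. The 4 windows below show such starts for Gas5, Snhg12, Snhg8 and Snhg7, from 35 bases before to 25 bases from the annotated RefSeq start on GRCm38.p6, given on the strand of the gene. Capitals mark a C followed by at least 4 further C or T whose first base lies within 5 bases of the start.
Gas5, chr1:161035131-161035190, plus strand: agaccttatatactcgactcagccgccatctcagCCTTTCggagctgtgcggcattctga
Snhg12, chr4:132308643-132308702, plus strand: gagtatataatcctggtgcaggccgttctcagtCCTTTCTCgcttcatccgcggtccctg
Snhg8, chr3:123508312-123508371, minus strand: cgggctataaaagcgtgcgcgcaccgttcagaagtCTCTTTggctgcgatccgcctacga
Snhg7, chr2:26640220-26640279, minus strand: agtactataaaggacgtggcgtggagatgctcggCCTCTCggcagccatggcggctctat
A run of this kind was found at 1 start or more in 6 of the 13 Gas5 and Snhg genes with a promoter sequence (46.2%), in 3 of 14 opposite-strand genes (21.4%), in 2 of 3 Mir-named genes, in 1 of 2 of the named RNAs (Meg3, with Malat1 lacking it) and in 18.6% of 27025 genes. The letters TATAA, searched on the gene's strand from 40 to 15 bases before the start, were in 4 of the 13 (30.8%), in 3 of the 14 (21.4%), in 0 of the 3 Mir-named genes, in Meg3 and in 4.22% of all. Of the called Snhg genes, Snhg6 had no promoter sequence to search, Snhg12 held the run and the TATAA letters, and the other 4 held neither. A match is a description of the window and not a mapped start site.

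Partners of the snoRNA hosts were examined from lists of genes. Of 13 proteins of snoRNA particles, 3 were in the table and none was called: Nop56 of the box C/D particle (1.18 on the log2 scale), Nhp2 of the box H/ACA particle (1.16) and the assembly factor Znhit3 (1.43), all higher. Nop56 had 455, 496 and 604 normalized counts in Mul1(+/+) and 1248, 1875 and 680 in Mul1(-/-). Of 16 factors of nonsense-mediated decay, Magoh (702 normalized counts on average in Mul1(+/+), 1578 in Mul1(-/-)) and Magohb (79.1 and 159), both from the exon junction complex, were in the table and neither was called. Of 16 paraspeckle proteins none was in the table, and of 16 speckle proteins Srsf11 (1.45), Tra2a (1.05) and Luc7l3 (0.91) were, with no call. Srsf11 had 1428, 1496 and 1408 against 6106, 4923 and 2062, the same order of mice as Malat1.

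**Figure D3:**
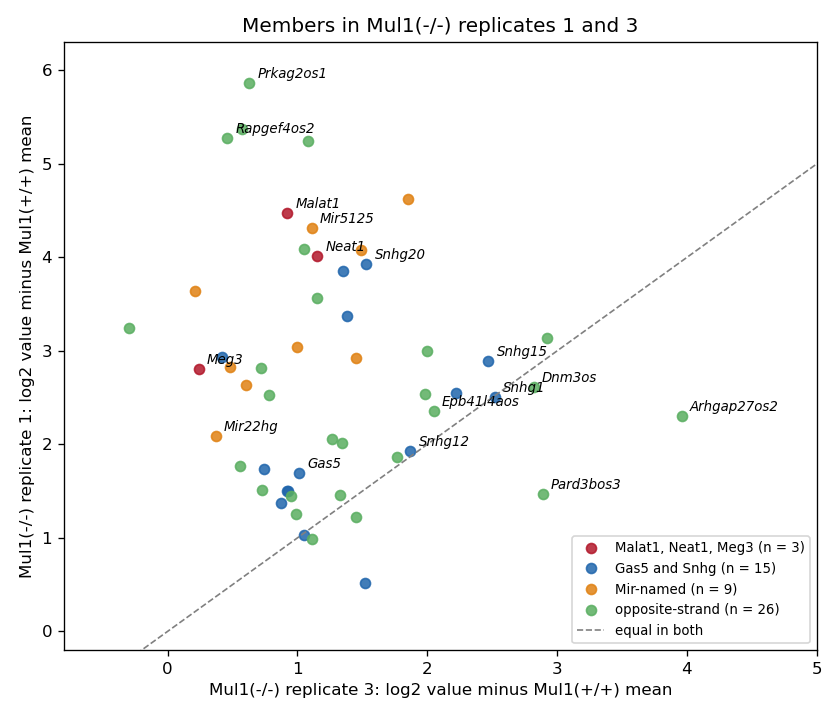
Each point is 1 of the 53 members, coloured by naming class. The axes give log2(normalized count + 1) minus the Mul1(+/+) mean in Mul1(-/-) replicate 3 (horizontal) and replicate 1 (vertical), and the dashed line marks equal differences. Malat1, Neat1, Meg3 and the Mir-named genes lie well above the line, while Snhg1, Snhg12 and Epb41l4aos lie near it.

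The Mir-named members are 3 host genes and 6 rows for single hairpins. In all 9 Mul1(-/-) replicate 3 was the lowest Mul1(-/-) library, and in 8 the order was replicate 1, then 2, then 3. Of the 9, 3 were called (Mir99ahg, Mir703 and Mir7052), which is 33.3% against 24.1% of all genes. The median log2 fold change was 2.22 (1.50 to 3.46). The number called was 0 without any one Mul1(+/+) library or Mul1(-/-) replicate 2 and 9 without Mul1(-/-) replicate 3 (75.5% of all genes). Rescaled by the median ratio, 1 was called.

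Mir22hg (ENSMUSG00000085148, chr11:75461539-75466676, plus strand), host of the miR-22 shown above, had the highest values among the host genes, 1148, 1702 and 825 normalized counts in Mul1(+/+) and 4983, 4862 and 1520 in Mul1(-/-) replicates 1 to 3. Replicate 3 was below the highest wild-type mouse, and the log2 fold change of 1.50 (SE 0.54, adjusted p = 0.0247 from limma) was not called. A stretch of 10.7% of its exon bases is shared with Tlcd2 on the same strand, and Tlcd2 was lower in Mul1(-/-), with 4981, 4563 and 2922 against 1397, 1198 and 1898 (-1.46, adjusted p = 0.0129 from limma, not called). Mir17hg (chr14:115042879-115046727, plus strand), from which the 6 hairpins of the miR-17-92 cluster are cut, had 25.3, 15.9 and 27.8 against 165, 119 and 31.6, a difference of 1.89 (SE 0.60, adjusted p = 0.0173 from limma). Mir99ahg (chr16:77236317-77773427, plus strand), whose introns hold the genes of miR-99a, let-7c and miR-125b, rose from 41.3, 61.1 and 32.7 to 336, 216 and 120, by 2.22 (SE 0.48, adjusted p = 0.00776 from limma). It was the one host of the 3 that was called, and its log2 fold change was 1.86 to 2.60 with single libraries omitted.

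The hairpin rows are intervals of 65 to 123 bases, too short to say which longer RNA the reads came from. Mir6236 (chr9:110281287-110281409, plus strand) was by far the most abundant, with 1327, 1916 and 1280 against 9232, 5489 and 2250, a log2 fold change of 1.71 (SE 0.53, adjusted p = 0.0167 from limma). Mir703 had the largest log2 fold change of the 53 members, 3.46 (SE 0.75, adjusted p = 0.00776 from limma), from 27.8, 54.0 and 35.1 to 650, 1091 and 107. It lies inside Cfap299 on that gene's other strand, outside its exons, and Cfap299 was not analysed here. Mir7052 rose from 0.84, 2.66 and 6.53 to 90.6, 33.1 and 12.3, by 3.23 (SE 0.72, adjusted p = 0.00803 from limma). It lies in an intron of Josd2 on the same strand, and Josd2, a deubiquitinase gene, had 583, 1033 and 731 against 5807, 5278 and 1574 and was called higher, by 2.26 (SE 0.55, adjusted p = 0.00933 from limma). Reads of unspliced Josd2 RNA and of the Mir7052 precursor cannot be told apart here. Mir5125 (2.56, adjusted p = 0.0142 from limma) lies in an intron of Srrm2, and Mir6397 (2.38, adjusted p = 0.0212 from limma) had at most 5.31 normalized counts in wild type and 57.0, 44.1 and 4.39 in Mul1(-/-), so that replicate 3 overlapped. Mir3074-1, named here after its values were seen, lies wholly within an exon of 2010111I01Rik on the other strand, and both were higher without being called (1.98 and 1.34).

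The proteins that make and use microRNAs had lower means where they were in the table. Of 20 listed genes, 3 were present, all 3 with lower means and none called. Drosha, the nuclear enzyme that cuts hairpins from host RNAs, had 754, 560 and 712 normalized counts in Mul1(+/+) and 346, 252 and 354 in Mul1(-/-), a log2 fold change of -1.09 (SE 0.38, adjusted p = 0.0233 from limma). Ago1 (-1.59, adjusted p = 0.0120 from limma) and Ago2 (-1.20, adjusted p = 0.0370 from limma, groups overlapping) are the Argonaute proteins that carry mature microRNAs.

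Of the 26 opposite-strand genes 7 were called (26.9%, against 24.1% of all genes): Epb41l4aos, Junos, Dnm3os, Mypopos, Pard3bos3, Sox5os4 and Sox6os. The median log2 fold change was 2.05 (1.07 to 3.17). All but Cebpzos, which GENCODE M21 types as protein-coding, are annotated as non-coding. In the class, median differences from wild type were 2.45, 2.29 and 1.13 in Mul1(-/-) replicates 1 to 3. The number called was 0 without any one Mul1(+/+) library or Mul1(-/-) replicate 2, and 23 without Mul1(-/-) replicate 3 (75.5% of all genes). With the median-ratio scaling 2 were called. Many opposite-strand genes were scarce, and over the 53 members 20 had a mean under 100 in both groups and 13 had under 20 reads in every wild-type library.

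Epb41l4aos (ENSMUSG00000087590) had 185, 248 and 139 normalized counts in Mul1(+/+) and 957, 928 and 768 in Mul1(-/-) replicates 1 to 3. The 3 Mul1(-/-) mice were within 1.25 times of each other, the rise was 2.24 (SE 0.40, adjusted p = 0.00603 from limma), and omitting single libraries gave 2.04 to 2.45. Its annotation holds 1 snoRNA gene and does not overlap the body of Epb41l4a, so it is a snoRNA host by annotation, like the Snhg genes. Rab26os also holds 1 snoRNA gene but was uneven, with 59.9, 129 and 25.5 in Mul1(-/-) replicates 1 to 3, and was not called (adjusted p = 0.0191 from limma). Cebpzos, the most abundant of the class, had 654, 964 and 597 against 1685, 3171 and 1980 (1.60, adjusted p = 0.0112 from limma). Ctcflos had 204, 354 and 230 against 697, 449 and 493 (1.07, adjusted p = 0.0300 from limma), the smallest difference among the opposite-strand genes. Neither was called.

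Several scarce opposite-strand genes had most of their Mul1(-/-) signal in replicate 1. Prkag2os1 had 0.84, 3.54 and 4.08 normalized counts in Mul1(+/+) and 203, 25.7 and 4.39 in Mul1(-/-) replicates 1 to 3, so its Mul1(-/-) values ran over 46.3 times. Rapgef4os2 had 11.0, 11.5 and 13.1 against 498, 115 and 16.7. Their log2 fold changes of 3.15 (SE 1.06) and 2.98 (SE 0.95) were not called (adjusted p = 0.0204 and 0.0177 from limma). Bcas3os1 had 3 reads over the wild-type libraries and 58 over the Mul1(-/-) libraries. With reads pooled by group and scaled by the summed library factors, the ratio was 25.9. Its 95% counting interval of 8.44 to 129 covers counting error only. Egfros, with 4 against 63 reads, gave a pooled ratio of 21.1 (7.85 to 79.9) and overlapped between groups. The ratios of mean normalized counts were 30.8 for Bcas3os1 and 26.5 for Egfros. Normalized counts in Mul1(-/-) replicates 1 to 3 were 64.3, 13.5 and 2.63 for Bcas3os1 and 76.0, 11.0 and 1.76 for Egfros.

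Other scarce members did not follow replicate 1. Sox5os4, with the largest rise of the class, 3.17 (SE 0.70, adjusted p = 0.00796 from limma), was even among Mul1(-/-) mice, going from 4.21, 7.97 and 0 to 30.7, 38.0 and 26.4. Arhgap27os2 had 3.37, 1.77 and 1.63 against 14.6, 4.90 and 48.3, and Pard3bos3 had 26.1, 38.1 and 13.9 against 68.7, 120 and 184, both with replicate 3 as the highest. Dnm3os (chr1:162217623-162225550, plus strand), the host of miR-199a and miR-214 shown above and known from mesenchymal cells, was the remaining member with replicate 3 highest, rising from 7.59, 3.54 and 4.90 to 36.5, 18.4 and 42.2, by 2.36 (SE 0.46, adjusted p = 0.00692 from limma). The stellate cell marker Dcn, in contrast, was highest in Mul1(-/-) replicate 2 (11555, 24011 and 5569). The names Dnm3os, Pard3bos3, Egfros and the other called opposite-strand genes were picked for mention after their values were seen.

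Sox6os and Mypopos complete the called genes of the class. Sox6os, transcribed against the gene of the transcription factor Sox6, rose from 14.3, 45.2 and 18.8 normalized counts in Mul1(+/+) to 139, 282 and 94.0 in Mul1(-/-), by 2.69 (SE 0.55, adjusted p = 0.00701 from limma). Mypopos rose from 6.74, 4.43 and 4.08 to 46.8, 22.0 and 22.8, by 2.31 (SE 0.44, adjusted p = 0.00692 from limma). In both, each Mul1(-/-) mouse was at least 1.95 above the Mul1(+/+) mean on the log2 scale. The other 10 opposite-strand genes (Chn1os3, Gimap1os, Igf1os, Man2c1os, Myadml2os, Prox2os, Rab26os, Sp3os, Srrm4os and Tmem51os1) were not called, with log2 fold changes from 1.27 (Man2c1os) to 2.49 (Myadml2os). Igf1os, which crosses the gene of the liver-made growth factor Igf1, had 39.6, 36.3 and 8.98 against 419, 56.3 and 50.1, so replicate 1 stood apart from the other Mul1(-/-) mice. Chn1os3 was the one member with a Mul1(-/-) library below the Mul1(+/+) mean, at 16.0, 21.3 and 13.1 against 165, 111 and 13.2.

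Each of the 26 opposite-strand names points to a sense gene, and in GENCODE M21 all 26 sense genes lie on the other strand. The gene bodies overlap in 25 pairs, exons overlap in 17, and the start sites are within 1000 bases of each other in 5. Only 5 sense genes are in the table, 1 higher and called and 4 with lower means and not called, and the other 21 were not analysed here. Without strand information in counting, reads from overlapping exons of a pair cannot be told apart.

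**Figure D4:**
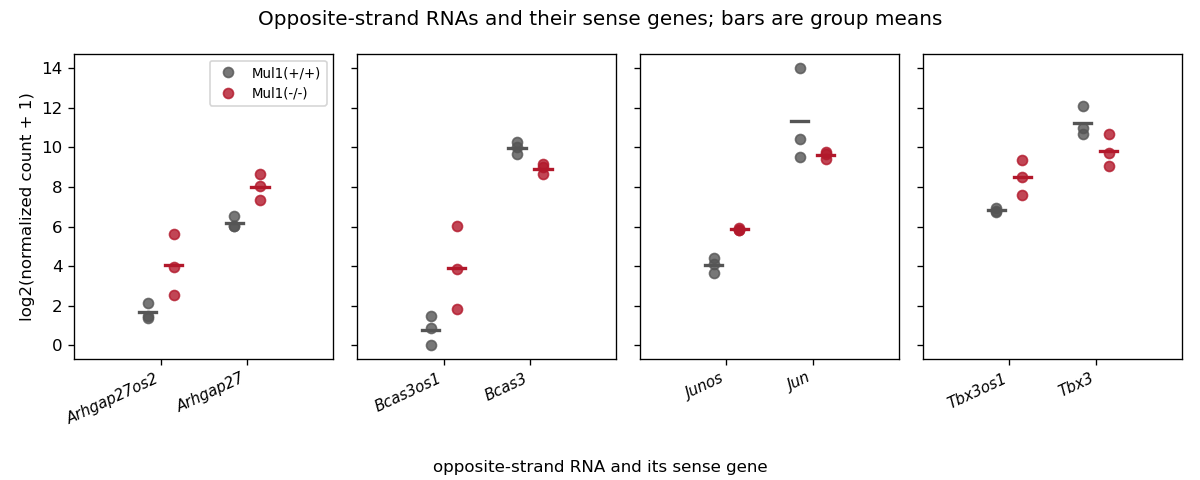
log2(normalized count + 1) in each library for 4 opposite-strand RNAs whose sense gene is in the table (left in each panel) and for that sense gene (right), with Mul1(+/+) in grey, Mul1(-/-) in red and bars for the means. The opposite-strand RNA is higher in Mul1(-/-) in all 4 panels, and the sense gene is higher in the Arhgap27 panel and has a lower mean in the other 3.

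Arhgap27, which codes for a GTPase-activating protein, had 92.7, 63.8 and 65.3 normalized counts in Mul1(+/+) and 399, 162 and 269 in Mul1(-/-), a rise of 1.82 (SE 0.45, adjusted p = 0.00965 from limma). This pair shares 75.9% of the exon bases of Arhgap27os2, the most of the 26 pairs, and the call was lost with each Mul1(+/+) library or Mul1(-/-) replicate 2 left out.

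Tbx3os1 and the T-box transcription factor gene Tbx3 have start sites 696 bases apart. Tbx3os1 had 107, 121 and 111 against 659, 367 and 195 (1.67, adjusted p = 0.0138 from limma), and Tbx3 had 1642, 2002 and 4319 against 849, 1623 and 538 (-1.42, adjusted p = 0.0282 from limma). Junos and Jun, the gene of the AP-1 subunit c-Jun, start 688 bases apart. Junos rose from 11.8, 20.4 and 16.3 to 59.9, 56.3 and 56.2, by 1.80 (SE 0.39, adjusted p = 0.00776 from limma), and its Mul1(-/-) mice were within 1.07 times of each other. Jun had 738, 16607 and 1376 in Mul1(+/+) and 859, 694 and 826 in Mul1(-/-), so its lower mean (-1.70, SE 0.93, adjusted p = 0.0988 from limma) rested on Mul1(+/+) replicate 2, in which Junos was also highest among the wild-type mice. Bcas3os1, transcribed inside Bcas3 far from its start and sharing no exon base with it, is described above, and Bcas3 had 1223, 809 and 1049 against 567, 397 and 510 (-1.06, adjusted p = 0.0266 from limma).

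The 3 coding genes with look-alike names were not part of any count above. Minos1, a subunit of the complex that shapes mitochondrial cristae, had 2193, 3583 and 2316 against 7993, 14070 and 6119 (1.75, adjusted p = 0.0107 from limma). Uros, an enzyme of heme synthesis, had a log2 fold change of 1.23 and Sos1, an activator of Ras, of -1.06, and none of the 3 was called.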

How the data were processed

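Liver mRNA libraries of 3 Mul1(+/+) and 3 Mul1(-/-) mice on HFD were made and sequenced by a service provider, and the authors tested the genotypes against each other by the Wald test of DESeq2. The aligner, counter, genome build and strand setting are not given in the sources used here. The authors deposited 1 table of 3542 selected genes with normalized counts (reads divided by 1 factor per library, unpooled). The authors' deposited test columns (p-value, adjusted p-value, log2 fold change) were not used. In every library 100% of the values under 1000 were whole multiples (within 0.1 read) of the value of 1 read, 0.8167 to 1.4612. A count test on these reads was planned and not run.

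After adding 1 and taking log2, limma 3.58.1 (R 4.3.3) was fitted to all genes with genotype as the only term and tested on simulated data. p-values measure the spread between mice. Members, lists and the rule for naming were chosen with earlier results of these data known. Named are all Gas5, Snhg, Malat1, Neat1 and Meg3 genes, of the Mir-named and opposite-strand genes the 6 with the highest mean and the 4 largest rises and falls, sense partners in the table, and at most 5 genes a list. Zfas1, Peg13, Pvt1 and Airn were named beyond the limit for their list. Coordinates are from GENCODE M21 (GRCm38, 52 of 53 members matched, Snhg4 being the exception) and sequences from RefSeq (GRCm38.p6). Other steps used scipy 1.17.1, pandas 2.3.3, numpy 2.4.6 and matplotlib 3.10.9 under Python 3.11.15. Alternatives were other pseudocounts, a filter on the mean, 3 rescalings, limma-trend, a replicate block, an adjusted p under 0.05 and each library left out. 1 opposite-strand pair is counted but not reported here by name.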

Additional observations from a re-analysis of the deposited data

How the results depend on the processing

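All 53 members kept the higher mean under every alternative run, and their median log2 fold change of 2.12 stayed between 1.48 (median-ratio scaling) and 2.16, and between 1.77 and 2.47 with each library left out. The number called depended on the setting, and the cause was not tested. Against 17 of the 53 members called, all higher, 7 of the 53 were called with median-ratio scaling, 31 with limma-trend and 53 at an adjusted p under 0.05 (over all 3542 genes, 1267, 1869 and 3380 against 854). With each library left out the members called ranged from 0 to 47, the Gas5 and Snhg genes (6) from 0 to 12, the Mir-named genes (3) from 0 to 9, the opposite-strand genes (7) from 0 to 23 and the sense partners (1) from 0 to 2. At an adjusted p under 0.05 these classes gave 15, 9, 26 and 4. The Mir-named genes gave 1 with median-ratio scaling, 5 with scaling by the table's total and 6 with limma-trend. The opposite-strand genes gave 12 with a pseudocount of 5, 2 with median-ratio scaling and 13 with limma-trend. The sense partners gave 0 with a pseudocount of 0.5 or with scaling by the total without the mitochondrial genome, 2 with a pseudocount of 5 or limma-trend, and 3 with median-ratio scaling. Over all genes the calls were 639 with a pseudocount of 0.5, 1399 with 5 and 1343 with scaling by the table's total.

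With the replicate number as a block, 0 members were called in limma, and 0 of each class and of the sense partners, with 51 members at an unadjusted p under 0.05 and 0 calls over all genes. Deviations from the group means correlated at 0.02, 0.35 and 0.05 between same-numbered mice 1 to 3. Between mice of different numbers the correlations were -0.20 to 0.13. Whether same-numbered mice share more than a number was not tested. Mul1(+/+) replicates 1, 2 and 3 and Mul1(-/-) replicate 2 each left 0 members called when omitted (25, 13, 46 and 10 calls over all genes). A planned count test on the recovered reads was not run. Depth is known only for the genes of the table, and Bcas3os1 and Egfros rest on 3 and 4 wild-type reads.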

Other observations

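Other named non-coding RNAs outside the naming rule were read from a list of 28, of which 15 were in the table. Of these, 14 had higher and 1 had lower means in Mul1(-/-), and 8 were called by limma, all higher. By the same rule 24.1% of all genes and 37.0% of the non-coding genes outside the naming rule were called. Kcnq1ot1, the imprinted antisense RNA of the Kcnq1 region, had 45.5, 40.7 and 38.4 normalized counts in Mul1(+/+) and 1144, 617 and 98.4 in Mul1(-/-) replicates 1 to 3, with the same order of mice as Malat1. Zfas1, itself a snoRNA host not named as one, had 311, 519 and 310 against 1565, 2155 and 1414, and each Mul1(-/-) mouse was far above the wild-type mice, as for Snhg1 and Snhg6. Firre, an X-linked nuclear RNA, had 314, 484 and 342 against 4007, 3812 and 913. Rn7sk, Rmrp and Rpph1 are made by RNA polymerase III and carry no poly(A) tail, and they had the largest changes of the list. Rn7sk had 13.5, 6.20 and 5.72 against 215, 315 and 54.5 (log2 fold change 4.13, adjusted p = 0.00432 from limma), Rmrp 3.37, 2.66 and 0 against 57.0, 107 and 14.9 (4.20, adjusted p = 0.00625), and Rpph1 5.90, 15.1 and 12.3 against 219, 497 and 27.2 (3.68, adjusted p = 0.00913). Peg13 was the exception in direction, with 400, 345 and 505 against 167, 79.6 and 182 (-1.61, adjusted p = 0.0122 from limma, not called).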
